A study of Mus musculus with 16 samples.

Results

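The genes described here encode the subcortical maternal complex and related oocyte proteins of the Nlrp family. The list holds 10 genes, namely Nlrp5, Ooep, Tle6, Khdc3, Padi6, Zbed3, Nlrp2, Nlrp4f, Nlrp14 and Nlrp9b, chosen by symbol, and every probe set annotated to one of these symbols alone was read. Of the 10 genes, 9 had such a probe set, among 18193 genes in all, and Nlrp2 was not analysed here. The 9 genes carried 12 probe sets, 4 of them for Zbed3 and 1 for each other gene, and all 12 passed the filter on dim probe sets, as did 15274 genes in the whole series. The study hybridised mouse two-cell embryo RNA to 16 one-colour oligonucleotide arrays, 4 in each of 4 groups. Two-cell embryos of the kind called BCB had a C3H maternal pronucleus beside a B6 paternal pronucleus, and those of the kind called BBB had B6 for both pronuclei. Both kinds were studied with the RNA polymerase II inhibitor α-amanitin, which the labels spell α-amantin, and untreated. The ooplasm was B6 in all 4 groups, so the groups share the strain of the egg cytoplasm in which maternal transcripts were laid down. The dose and time of α-amanitin, the number of embryos behind an array and the way the pronuclei were placed are not stated in these sources. No source states that the 4 arrays of a group came from separate batches of embryos, so p-values measure the spread between these samples, which may be technical.

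The subcortical maternal complex is an assembly of maternal proteins beneath the membrane of the mouse egg and early embryo. Nlrp5 (also called Mater), Ooep (Floped), Tle6 and Khdc3 (Filia) are its core members in mouse, Zbed3 was added to it later, and mouse embryos whose mothers lack Nlrp5, Ooep or Tle6 stop at early cleavage. Padi6, a member of the peptidylarginine deiminase family, is needed for the cytoplasmic lattices, fibrous structures that store maternal proteins in the mouse egg. Nlrp4f has been reported to bind members of the complex in mouse, and Nlrp14 and Nlrp9b belong to the oocyte-expressed branch of the Nlrp family, whose best known members elsewhere are sensors of the inflammasome. The transcripts are made in the growing oocyte and are degraded as the embryo starts its own transcription. α-amanitin blocks that transcription, so the messenger RNA of a treated embryo is mostly of maternal origin. In arrays of whole embryos, fewer cells of a type and less RNA per cell cannot be told apart.

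The 250 bases upstream of the outermost annotated start are shown for the 5 complex and lattice genes that were higher with amanitin on the deposited scale, Nlrp5, Ooep, Tle6, Padi6 and Zbed3, and for Khdc3, the member that was lower. They are taken from RefSeq on GRCm38.p6 and read 5′ to 3′ on the gene's strand, at chr7:23385639-23385888 (+ strand) for Nlrp5, chr9:78378589-78378838 (− strand) for Ooep, chr10:81600901-81601150 (− strand) for Tle6, chr4:140742644-140742893 (− strand) for Padi6, chr13:95323355-95323604 (+ strand) for Zbed3 and chr9:73102148-73102397 (+ strand) for Khdc3. Capitals mark E-boxes (CANNTG), to which basic helix-loop-helix factors such as Figla and Sohlh1 bind, the elements TAATTG and TAATTA, to which the oocyte homeobox factor Nobox binds, and TATAAA, searched on both strands.
Nlrp5: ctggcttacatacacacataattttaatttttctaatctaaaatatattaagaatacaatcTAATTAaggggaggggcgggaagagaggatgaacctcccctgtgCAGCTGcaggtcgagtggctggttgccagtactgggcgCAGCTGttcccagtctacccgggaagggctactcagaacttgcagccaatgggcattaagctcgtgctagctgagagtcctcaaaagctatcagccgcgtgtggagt
Ooep: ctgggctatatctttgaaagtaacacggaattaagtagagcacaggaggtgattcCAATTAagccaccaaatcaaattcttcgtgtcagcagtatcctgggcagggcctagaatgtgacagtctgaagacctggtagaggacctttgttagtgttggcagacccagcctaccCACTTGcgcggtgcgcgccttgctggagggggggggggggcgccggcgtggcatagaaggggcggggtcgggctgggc
Tle6: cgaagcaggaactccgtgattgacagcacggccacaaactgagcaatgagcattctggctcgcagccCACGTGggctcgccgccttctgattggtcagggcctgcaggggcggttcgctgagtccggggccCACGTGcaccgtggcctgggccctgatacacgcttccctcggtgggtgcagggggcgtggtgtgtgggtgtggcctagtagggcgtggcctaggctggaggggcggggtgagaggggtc
Padi6: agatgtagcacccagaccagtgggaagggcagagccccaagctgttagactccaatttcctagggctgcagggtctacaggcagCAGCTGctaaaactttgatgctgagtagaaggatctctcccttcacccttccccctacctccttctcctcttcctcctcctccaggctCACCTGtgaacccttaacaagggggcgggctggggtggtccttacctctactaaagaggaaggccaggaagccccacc
Zbed3: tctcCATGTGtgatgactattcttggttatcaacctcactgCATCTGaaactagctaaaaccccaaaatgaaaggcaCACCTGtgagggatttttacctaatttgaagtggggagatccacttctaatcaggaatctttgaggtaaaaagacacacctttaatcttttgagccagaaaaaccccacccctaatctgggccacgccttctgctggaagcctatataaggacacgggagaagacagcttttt
Khdc3: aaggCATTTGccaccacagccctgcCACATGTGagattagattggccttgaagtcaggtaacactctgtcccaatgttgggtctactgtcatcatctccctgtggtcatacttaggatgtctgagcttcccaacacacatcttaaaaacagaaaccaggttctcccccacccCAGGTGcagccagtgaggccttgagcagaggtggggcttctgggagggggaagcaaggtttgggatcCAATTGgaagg
The Nlrp5 window held 2 E-boxes and 1 TAATTA, and the Ooep window held 1 E-box and 1 TAATTG, read on the other strand. Both Tle6 E-boxes had the letters CACGTG, Padi6 had 2 E-boxes, Zbed3 had 3, and Khdc3 had 5, of which 2 overlap. Among the 9 listed genes that had a window in the table, 8 held an E-box in any of their 13 windows, 3 held either Nobox element (Nlrp5, Ooep and Nlrp9b) and 3 held TATAAA. No TATA box lay in a printed window. Of the 32851 windows of this length that were searched, 66.2% held an E-box, 11.3% either Nobox element and 12.4% TATAAA. These shares are per window, whereas the member counts are per gene over up to 3 windows, so they are not directly comparable. A match of letters is a description of the window and no evidence of binding.

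Values are the deposited linear intensities, and changes and differences are given on the scale of log2(intensity + 16), which understates changes of dim probe sets. A change was called where limma's adjusted p was under 0.05 over all 31953 probe sets tested. The authors scaled each array to the same trimmed mean, so a change is relative to the rest of the array. On the log2 scale the poly-A controls, added before labelling, lay between 9.07 and 9.89 on the 8 arrays with amanitin and between 7.46 and 8.02 on the 8 untreated arrays, and the hybridization controls between 9.74 and 10.18 with amanitin and between 9.17 and 9.47 untreated. Changes on the scale of the poly-A controls are therefore given beside those on the deposited scale. With amanitin, all 6 tested markers of embryonic transcription at this stage were lower in both kinds, with a median log2 change of −4.54 in BCB and −4.66 in BBB embryos. Of the oocyte markers, 6 of 7 were higher in both kinds on the deposited scale, against none higher and 4 lower in BCB and 3 lower in BBB on the poly-A scale, and 1 of them, Ooep, is also listed here. The summed intensity of 12 cumulus and granulosa cell markers was 798 to 890 in BCB with amanitin, 754 to 995 in BBB with amanitin, 726 to 903 in BCB untreated and 646 to 848 in BBB untreated, and 10, 10, 11 and 11 of the 12 stayed below 100 on every array of the group in the same order. Nr5a2 was the brightest of these markers, with group means of 427.5, 487, 588 and 516 in the same order, so the sums rest largely on that gene. With amanitin, 4 of the 9 tested markers were called higher and 1, Nr5a2, lower in BCB and 5 higher in BBB on the deposited scale. On the poly-A scale none was higher, with 5 lower in BCB and 6 in BBB. Shares of all tested genes called on the deposited scale were 39.9% higher and 31.9% lower in BCB, and 37.1% and 33.1% in BBB. On the poly-A scale 79.7% were lower in BCB and 80.8% in BBB. The part of cumulus and granulosa cells in the results was not tested.

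With amanitin, 8 of the 9 genes were higher and 1, Khdc3, was lower in both kinds of embryo on the deposited scale, and on the scale of the poly-A controls none was higher, with 9 lower in BCB and 7 in BBB. Among all tested genes, 39.9% were called higher and 31.9% lower in BCB embryos, and 37.1% higher and 33.1% lower in BBB embryos. On the poly-A scale, 1.09% of all tested genes were called higher and 79.7% lower in BCB, and 1.27% higher and 80.8% lower in BBB. On the scale of the hybridization controls, 2 members were called higher and 3 lower in BCB, where 63.2% of all genes were called in either direction, and 6 higher and 1 lower in BBB, where 65.0% were. All 4 arrays with amanitin lay above all 4 untreated arrays for 6 of the 9 genes in BCB and 8 in BBB, as they did for 35.6% and 33.9% of all genes. They lay below for Khdc3 in each kind, as for 29.7% of all genes in BCB and 30.7% in BBB. The median log2 change of the 9 genes was 0.87 in BCB and 0.85 in BBB embryos, beside 0.17 and 0.11 for all genes. On the poly-A scale the median of the 9 genes was −0.94 in BCB and −0.92 in BBB, beside −1.08 and −1.12 for all genes.

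**Figure D1:**
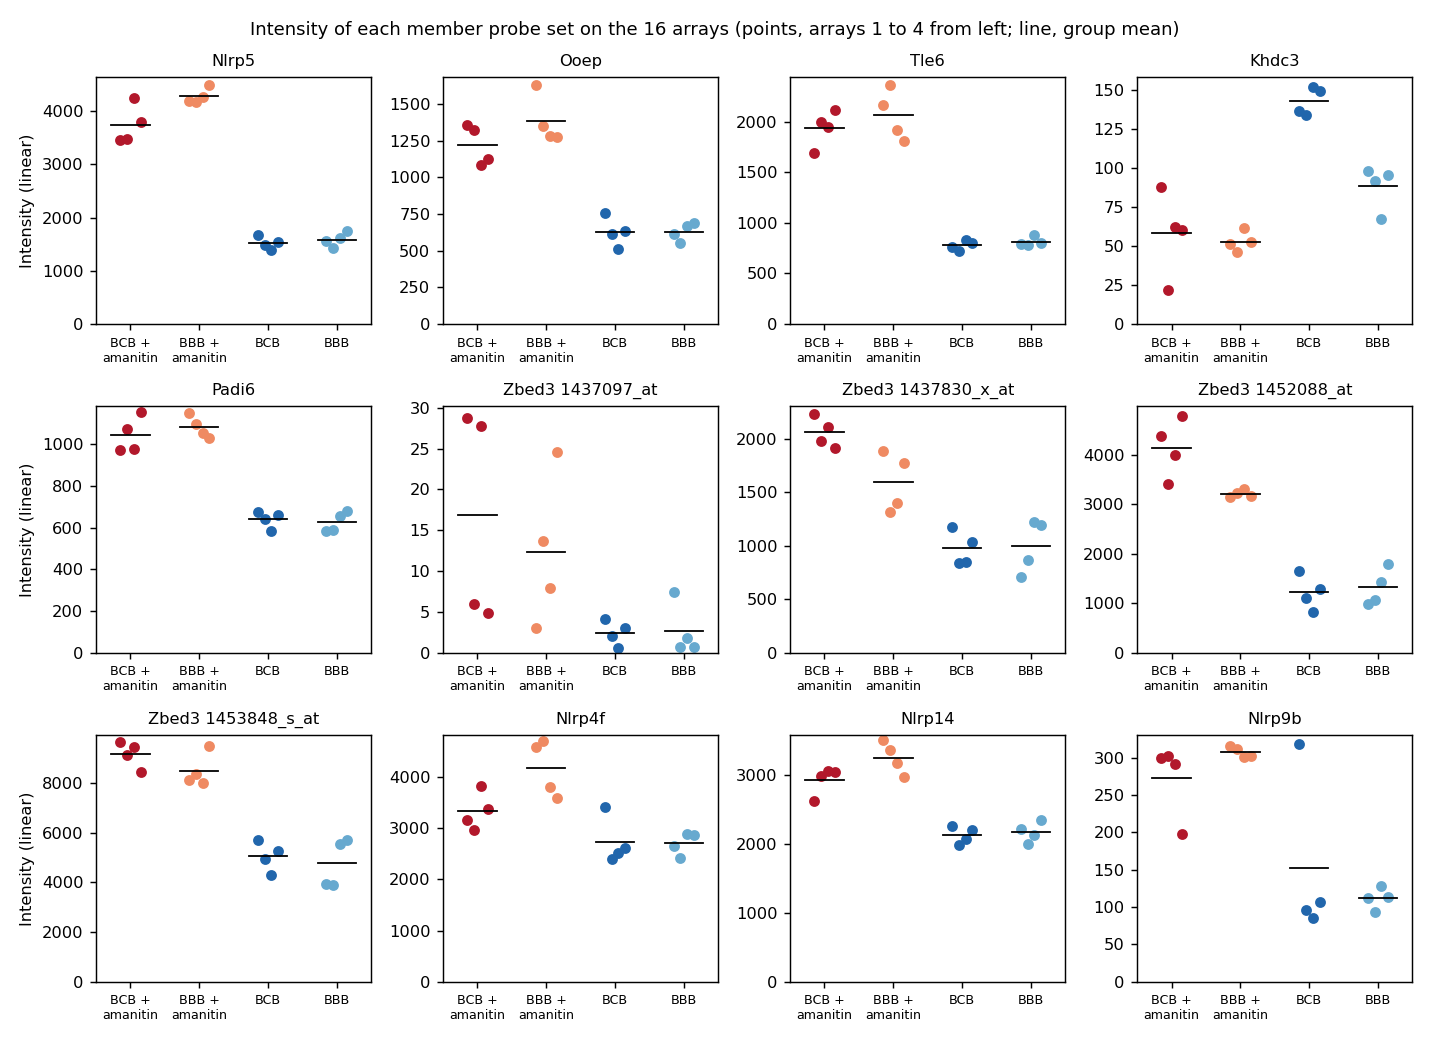
Linear intensity of the 12 probe sets on all 16 arrays, with 1 point per array, a line at the group mean and the groups in the order BCB with amanitin, BBB with amanitin, BCB and BBB. The arrays with amanitin lie above the untreated arrays of the same kind for Nlrp5, Ooep, Tle6, Padi6, Nlrp14 and 3 bright Zbed3 probe sets on the deposited scale, which turns below 0 on the poly-A scale, and below them for Khdc3.

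Nlrp5 encodes the large leucine-rich repeat protein on which the other members of the complex depend in mouse. In BCB embryos the intensity of its probe set 1418882_at was 3452, 3473, 4242 and 3794 with amanitin, against 1679, 1481, 1399.7 and 1549.7 untreated. In BBB embryos it was 4193, 4166, 4269 and 4488 with amanitin, against 1568, 1419, 1619 and 1742 untreated. No array of one treatment reached into the range of the other, and the BBB arrays with amanitin had the smallest SD for their mean, at 4279 ± 146 (mean ± SD, n = 4), beside 3740.2 ± 369 in BCB with amanitin. The log2 change was 1.28 (SE 0.08) in BCB and 1.43 (SE 0.08) in BBB embryos, with limma adjusted p of 1.27e-12 and 1.82e-13, and it turned to −0.51 and −0.35 on the poly-A scale. On the hybridization scale it was 0.51 and 0.92, both called. On the deposited scale the change was above that of 90.9% of all tested genes in BCB and of 93.2% in BBB.

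Ooep encodes a small protein with a K homology-like domain that forms part of the core in mouse. In BCB embryos the intensity of its probe set 1460471_at was 1354, 1322, 1083 and 1121 with amanitin, against 753, 610.4, 513 and 637 untreated. BBB embryos gave 1627, 1349.9, 1281 and 1272 with amanitin, against 611, 553, 666 and 686 untreated. Every array with amanitin was above every untreated array, and the highest value of all stood on BBB array 1 with amanitin. Its log2 change was 0.95 (SE 0.12) in BCB and 1.11 (SE 0.12) in BBB embryos (limma adjusted p 1.22e-07 and 8.29e-09), against −0.83 and −0.64 on the poly-A scale. Scaling to the hybridization controls ended the call in BCB, at 0.19 (limma adjusted p 0.211), and gave 0.61 in BBB.

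Tle6, a member of the transducin-like enhancer family, binds Nlrp5 and Ooep in the mouse complex. In BCB embryos the intensity of its probe set 1448727_at was 1692, 1999, 1944 and 2119 with amanitin, against 761, 721, 828 and 803 untreated. For BBB embryos the values were 2163, 2359.9, 1916 and 1815 with amanitin, against 795, 777, 884 and 803 untreated. The groups did not overlap, and the untreated arrays of both kinds lay within a narrow band. The log2 change was nearly the same in both kinds, 1.30 (SE 0.09) in BCB and 1.32 (SE 0.09) in BBB embryos (limma adjusted p 1.26e-11 and 9e-12), and −0.49 and −0.44 on the poly-A scale. On the hybridization scale it was 0.54 and 0.82, also called.

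Khdc3, which in mouse is needed for correct chromosome numbers in cleaving embryos, differed from the other members in direction on the deposited scale. In BCB embryos the intensity of its probe set 1429377_at was 88, 21.9, 62.4 and 60.4 with amanitin, against 136, 134, 152 and 149.5 untreated. In BBB embryos it was 51.5, 45.9, 61.4 and 52.2 with amanitin, against 98.2, 91.7, 67.2 and 95.2 untreated. All arrays with amanitin were below the untreated arrays of their kind, and BCB array 2 with amanitin was the lowest of all 16. Its log2 change was −1.19 (SE 0.21) in BCB embryos (limma adjusted p 2.54e-05) and −0.59 (SE 0.21) in BBB embryos (0.0161), and −2.62 and −2.01 on the poly-A scale. Quantile normalization ended the call in BBB embryos, at −0.23 (limma adjusted p 0.372). The probe set was dim beside its arrays' brighter probe sets, and the change in BCB was −1.44 with a pseudocount of 1 and −0.79 with 64.

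**Figure D2:**
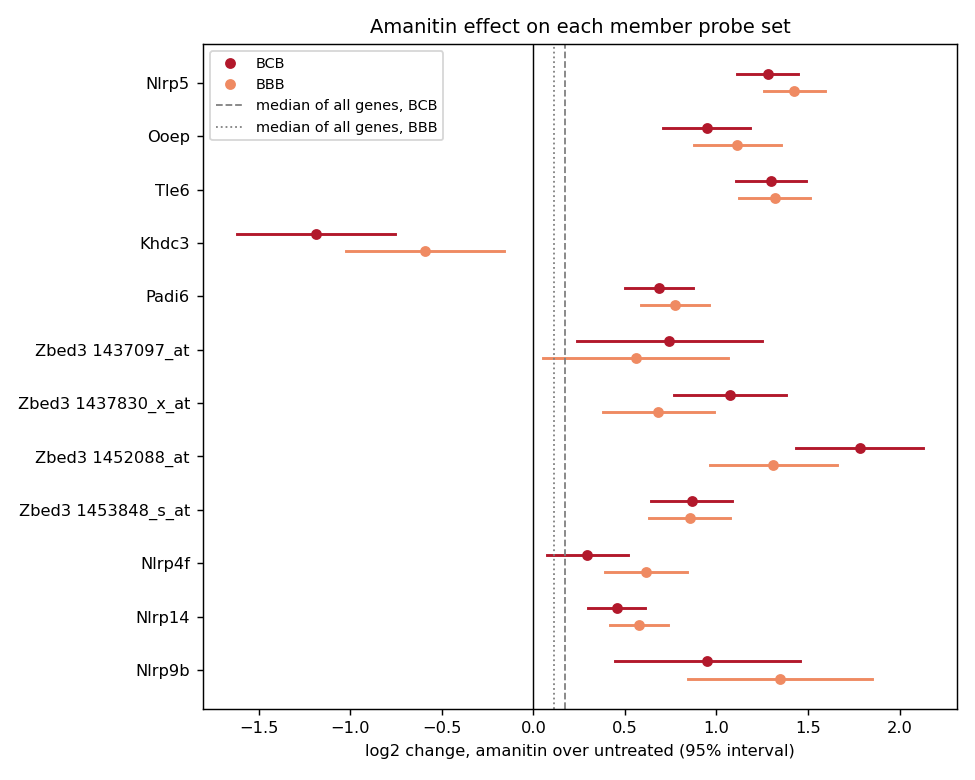
Log2 change with amanitin over untreated for each of the 12 probe sets, with 95% intervals, BCB above BBB, and vertical lines at the median of all tested genes (0.17 in BCB and 0.11 in BBB). On the deposited scale Khdc3 lies left of 0 and the other 11 probe sets lie right of it, whereas on the poly-A scale only the dim Zbed3 probe set 1437097_at was above 0 (0.25 and 0.13).

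Padi6, read from 1437084_at, had intensities of 969.5, 1070.0, 976 and 1154 with amanitin in BCB embryos, against 675, 640.5, 586 and 659 untreated. BBB embryos had 1151, 1096, 1055 and 1028 with amanitin, against 582, 589.9, 658 and 681 untreated. The 2 treatments were fully apart in both kinds, with a smaller log2 change than Nlrp5, Ooep or Tle6 on the deposited scale. Its log2 change was 0.69 (SE 0.09) in BCB and 0.77 (SE 0.09) in BBB embryos (limma adjusted p 3.56e-07 and 5.65e-08), and −1.08 and −0.98 on the poly-A scale. In BCB embryos it was also below 0 when arrays were scaled to the hybridization controls (−0.07, limma adjusted p 0.637), and in BBB it was 0.27 there (0.0471).

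Zbed3, a zinc finger protein of the BED type first described as a partner of axin, was read from 4 probe sets. The brightest, 1453848_s_at, had 9643, 9142, 9464 and 8436 with amanitin in BCB embryos, against 5688, 4949.6, 4306 and 5243 untreated. In the BBB embryos it had 8102, 8368, 8000.2 and 9501 with amanitin, against 3934, 3873, 5531 and 5702 untreated. The treatments did not overlap, while the untreated BBB arrays split, with arrays 1 and 2 low and arrays 3 and 4 high. Its log2 change was 0.87 (SE 0.11) in BCB and 0.85 (SE 0.11) in BBB embryos (limma adjusted p 1.43e-07 and 1.77e-07), and −0.94 and −0.92 on the poly-A scale. Scaling to the hybridization controls ended the call in BCB (0.09, limma adjusted p 0.522) and gave 0.35 in BBB. With quantile normalization the changes were 0.24 and 0.26.

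The other Zbed3 probe sets differed in size. Probe set 1452088_at had 4384, 3410.4, 3984 and 4784 with amanitin in BCB embryos, against 1659.6, 1099.9, 832 and 1286 untreated, and 1437830_x_at had 2232, 1982, 2115 and 1916 with amanitin, against 1179, 840.1, 854 and 1037 untreated. In BBB embryos 1452088_at had 3151, 3218, 3316 and 3166 with amanitin, against 993, 1061, 1437 and 1798 untreated, and 1437830_x_at had 1887, 1320.0, 1400.2 and 1775 with amanitin, against 713, 872, 1225 and 1191 untreated. Both probe sets kept the treatments apart in both kinds. The log2 change of 1452088_at was 1.78 in BCB and 1.31 in BBB embryos (limma adjusted p 1.54e-09 and 2.47e-07), and −0.01 and −0.46 on the poly-A scale. That of 1437830_x_at was 1.08 and 0.68 (7.52e-07 and 0.000272), and −0.71 and −1.08 on the poly-A scale, and its call ended in both kinds on the hybridization scale (0.31 and 0.18). The fourth, 1437097_at, read between 0.6 and 28.8 on all arrays, where the arrays' 40th percentile was 10.8 to 14.1. It reached that percentile on 4 arrays, 2 of each kind with amanitin and none untreated, so it entered the fit through the arrays on which it was high. Its log2 changes of 0.74 in BCB and 0.56 in BBB embryos are therefore given as a description, without a test. Every other member probe set reached that percentile on all 16 arrays. Across the 8 untreated arrays the 3 bright probe sets correlated with each other at r of 0.85 to 0.88, and across the 8 arrays with amanitin at 0.30 to 0.66, over arrays that share depth and labelling.

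Nlrp4f, read from 1436794_at, had intensities of 3167, 2963, 3833 and 3374 with amanitin in BCB embryos, against 3409.8, 2391, 2508 and 2610.1 untreated. BBB embryos had 4588, 4708, 3799.6 and 3594 with amanitin, against 2655, 2409.5, 2887 and 2876 untreated. The BBB groups were apart, and the BCB groups overlapped through BCB array 1, whose untreated value was above 3 of the 4 arrays with amanitin. This gave a log2 change of 0.30 (SE 0.11) in BCB and 0.62 (SE 0.11) in BBB embryos (limma adjusted p 0.0188 and 2.16e-05), and −1.50 and −1.16 on the poly-A scale. In BCB it was also below 0 with quantile normalization (−0.16) and on the scale of the hybridization controls (−0.47). In BBB both ended the call, at 0.09 and 0.11 (limma adjusted p 0.459 and 0.427). The BCB call was lost with no intensity trend in the variance (adjusted p 0.0636), without untreated BCB array 2 (0.24, adjusted p 0.0759), without untreated BCB array 3 (0.26, 0.058) and without BCB array 3 with amanitin (0.23, 0.0827), all by limma.

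Nlrp14, expressed in oocytes and in male germ cells and read from 1429409_at, had intensities of 2622, 2980.0, 3053 and 3038 with amanitin in BCB embryos, against 2256, 1984, 2072 and 2195 untreated. For BBB embryos the intensities were 3504, 3358, 3173 and 2974 with amanitin, against 2212, 2002, 2135 and 2349 untreated. The treatments did not overlap in either kind. The log2 change was 0.46 (SE 0.08) in BCB and 0.58 (SE 0.08) in BBB embryos (limma adjusted p 1.12e-05 and 3.59e-07), and −1.34 and −1.19 on the poly-A scale. It was lower in BCB on the scale of the hybridization controls (−0.31, adjusted p 0.0116) and not called in BBB there (0.07, 0.577), and quantile normalization ended its call in both kinds (0.09 and 0.14).

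Nlrp9b, of the Nlrp9 group of oocyte genes and read from 1457084_at, had intensities of 299.8, 302, 291 and 197 with amanitin in BCB embryos, against 319, 96.7, 85.4 and 107 untreated. BBB embryos gave 316, 312, 301 and 303 with amanitin, against 113, 93.6, 128 and 114 untreated. The BBB groups were far apart, whereas untreated BCB array 1 was above all 4 BCB arrays with amanitin and the other 3 untreated BCB arrays were below them. This gave a log2 change of 0.95 (SE 0.24) in BCB and 1.35 (SE 0.24) in BBB embryos (limma adjusted p 0.00147 and 3.49e-05), and −0.70 and −0.29 on the poly-A scale. Scaling to the hybridization controls ended the BCB call (0.25, limma adjusted p 0.406) and gave 0.88 in BBB. Without untreated BCB array 1 the BCB change was 1.35 (limma adjusted p 4.49e-08). That array was the highest of its group for 7 of the 9 genes, as it was for 28.4% of the 5141 genes that were higher with amanitin in both kinds.

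**Figure D3:**
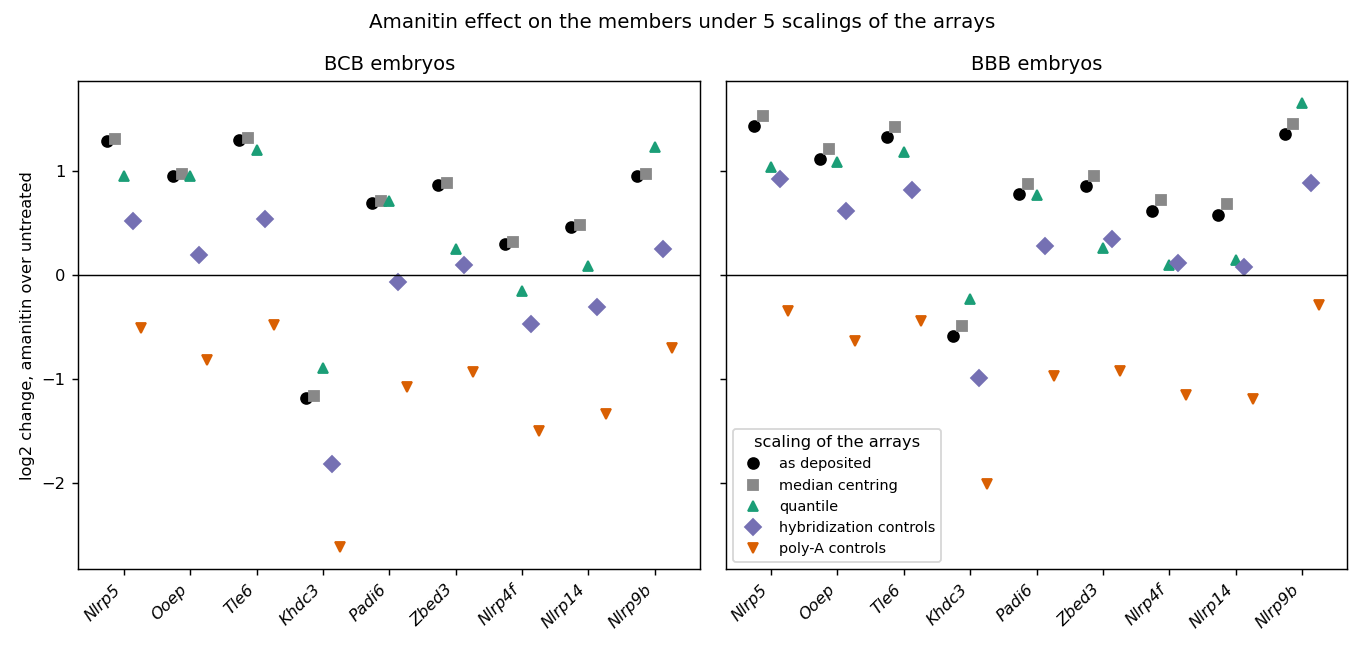
Log2 change with amanitin over untreated for the 9 genes in BCB embryos (left) and BBB embryos (right) under 5 scalings of the arrays, 1 symbol per scaling. On the deposited scale and with median centring 8 genes lie above 0 and Khdc3 below it, whereas on the poly-A scale all 9 lie below 0 in both kinds and on the hybridization control scale Khdc3, Padi6, Nlrp4f and Nlrp14 lie below 0 in BCB.

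The size of the change was compared between members within the same arrays. A constant added to all log2 values of an array leaves such a ratio as it is, while quantile normalization, and for dim probe sets the added 16, do not. The log2 ratio of Nlrp5 to Padi6 was higher with amanitin by 0.59 in BCB and 0.65 in BBB embryos, and that of Nlrp5 to Nlrp14 by 0.83 and 0.85. The ratio of Ooep to Khdc3 was higher by 2.13 in BCB and 1.71 in BBB embryos. In each of these 6 comparisons the 4 ratios with amanitin were all above the 4 untreated ones, with an exact two-sided permutation p of 0.0286, the smallest that 4 against 4 arrays allow, and an adjusted p of 0.049 over 12 such tests. The ratio of Nlrp5 to Ooep differed by 0.34 in BCB embryos, which did not pass (exact permutation p 0.0857, adjusted 0.114), and was higher by 0.31 in BBB embryos (exact permutation p 0.0286, adjusted 0.049). The ratio of Nlrp5 to Tle6 differed by −0.02 in BCB and 0.11 in BBB (exact permutation p 0.857 and 0.429), and that of Tle6 to Ooep by 0.35 and 0.21 (exact p 0.143 and 0.0571), and these did not pass. With quantile normalization the difference for Nlrp5 to Ooep was 0.00 in BCB and turned to −0.04 in BBB, that for Nlrp5 to Padi6 was 0.24 in BCB and 0.27 in BBB, and that for Nlrp5 to Nlrp14 was 0.86 and 0.89. The difference for Ooep to Khdc3 was 1.84 in BCB and 1.31 in BBB with quantile normalization, and 1.80 and 1.37 on the poly-A scale. The pairs were chosen after the values were seen. The adjusted p depends on which pairs were chosen, so these ratios are a description and no test of the members.

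The next comparison was between maternal pronuclei, BCB over BBB. None of the 9 genes was called in the untreated embryos, where 0.655% of all genes were, and none with amanitin, where 0.0786% were. For untreated embryos the 95% intervals of the log2 difference ran from −0.19 to 0.13 for Nlrp14, the narrowest, to −0.30 to 0.71 for Nlrp9b, the widest among the 9 genes. For Nlrp5 the interval was −0.22 to 0.11, for Ooep −0.25 to 0.23, for Tle6 −0.26 to 0.13, for Padi6 −0.16 to 0.21 and for Zbed3 −0.12 to 0.32. These intervals bound the difference and do not show that the kinds were alike.

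Khdc3 stood apart among untreated embryos without passing the test over all genes. Its intensity was 143 ± 9.06 in BCB and 88.1 ± 14.2 in BBB embryos (mean ± SD, n = 4 each), and all 4 BCB arrays were above all 4 BBB arrays, as they were for 2.86% of all genes. The log2 difference was 0.62 (95% interval 0.19 to 1.05, limma adjusted p 0.332), and it passed when only the 8 untreated arrays were fitted (adjusted p 0.0261). With amanitin Khdc3 was 58.2 ± 27.2 in BCB and 52.8 ± 6.42 in BBB embryos, with overlapping arrays and a difference of 0.03 (−0.41 to 0.46), which was 0.32 without BCB array 2 with amanitin and −0.17 without BCB array 1 with amanitin, neither called. The test of the difference between effects, BCB effect minus BBB effect, gave −0.59 (−1.21 to 0.02, limma adjusted p 0.606), and −0.30 without BCB array 2 with amanitin.

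**Figure D4:**
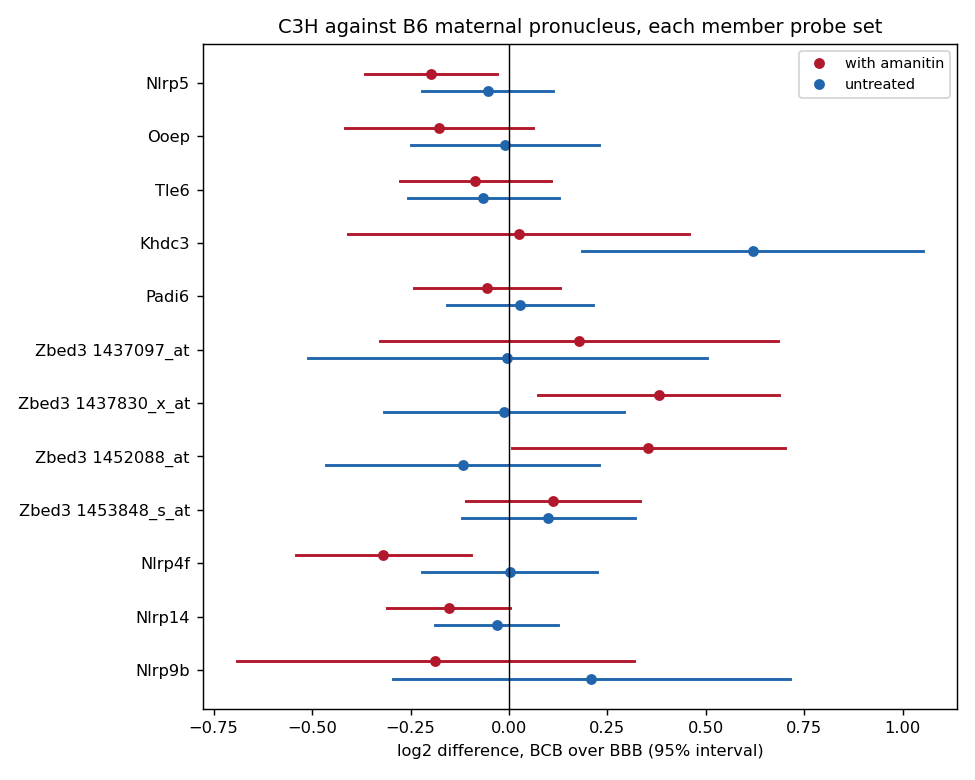
Log2 difference of BCB over BBB embryos for each of the 12 probe sets with 95% intervals, with amanitin above untreated. No probe set passed the limma test, and the Khdc3 interval in untreated embryos (0.19 to 1.05) lies farthest from 0.

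With amanitin, Nlrp4f was 3334 ± 372 in BCB and 4172 ± 558 in BBB embryos, a log2 difference of −0.32 (−0.54 to −0.10, limma adjusted p 0.273), with overlap through BCB array 3. Nlrp5 was 3740.2 ± 369 in BCB and 4279 ± 146 in BBB embryos, a difference of −0.20 (−0.37 to −0.03, adjusted p 0.37). The Zbed3 probe sets 1437830_x_at and 1452088_at ran the other way, with all 4 BCB arrays above all 4 BBB arrays, as for 2.01% of all genes. Their differences were 0.38 and 0.35 (limma adjusted p 0.346 and 0.449), whereas that of the brightest Zbed3 probe set was 0.11 (−0.11 to 0.33). No member was called in that test of BCB effect minus BBB effect, where 0.255% of all genes were, and the lowest unadjusted p was 0.0455, for Nlrp4f at −0.32 (−0.64 to −0.01, adjusted p 0.574). At an unadjusted p under 0.05, Khdc3 differed between the kinds untreated (0.00713), and Nlrp4f (0.00685), Nlrp5 (0.0221) and the 2 Zbed3 probe sets (0.017 and 0.0458) with amanitin.

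Of 16 other Nlrp genes and pseudogenes, 10 were tested. With amanitin, 5 were called higher and 3 lower in BCB embryos, and 5 higher and 5 lower in BBB embryos, whereas on the poly-A scale none was higher, with 10 and 9 lower. Of all tested genes, 39.9% were higher and 31.9% lower in BCB, and 37.1% and 33.1% in BBB, on the deposited scale. On the poly-A scale 79.7% and 80.8% of all genes were lower. Nlrp4a, of the same oocyte branch as Nlrp4f, was 3018 ± 255 with amanitin, against 1226 ± 191 untreated in BCB embryos, and 3478 ± 323 against 1191 ± 144 in BBB embryos (mean ± SD, n = 4 each). Its log2 change on the deposited scale was 1.30 and 1.54, and that of Nlrp4b was 1.14 and 1.14. Nlrp9a (1.18 and 1.13) and Nlrp9c (1.10 and 1.06), the close relatives of Nlrp9b, and Nlrp4e (0.42 and 0.50) were the others called higher on that scale. Nlrp4 and Nlrp9 genes are near-identical copies in part, so a probe set may read more than 1 of them.

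Nlrp3, the sensor of the best studied inflammasome in immune cells, ran the other way on the deposited scale. It was 35.1 ± 12.6 with amanitin, against 248 ± 9.08 untreated in BCB embryos, and 35.2 ± 13.8 against 260.1 ± 27.1 in BBB embryos. Its log2 change was −2.40 and −2.46 (limma adjusted p 2.16e-11 and 1.29e-11). Nlrp6, known from the gut lining, had −0.52 and −1.20, and Nlrp12, known from myeloid cells, −0.81 and −0.97, both from intensities below 70 on all arrays, of which Nlrp12 reached the 40th percentile on 11. Nlrp4c (−0.53) and the pseudogene Nlrp5-ps (−0.44) were lower in BBB, and their changes of −0.29 and −0.33 in BCB were not called. Nlrp5-ps and Nlrp12 reached the 40th percentile on every untreated array, but with amanitin on 1 array in BCB and 2 in BBB. The changes of Nlrp5-ps and Nlrp12 are therefore given as a description, though counted above where called. The naming rule does not cover Nlrp9c, Nlrp4e, Nlrp4c and Nlrp5-ps, which were added with their values known.

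**Figure D5:**
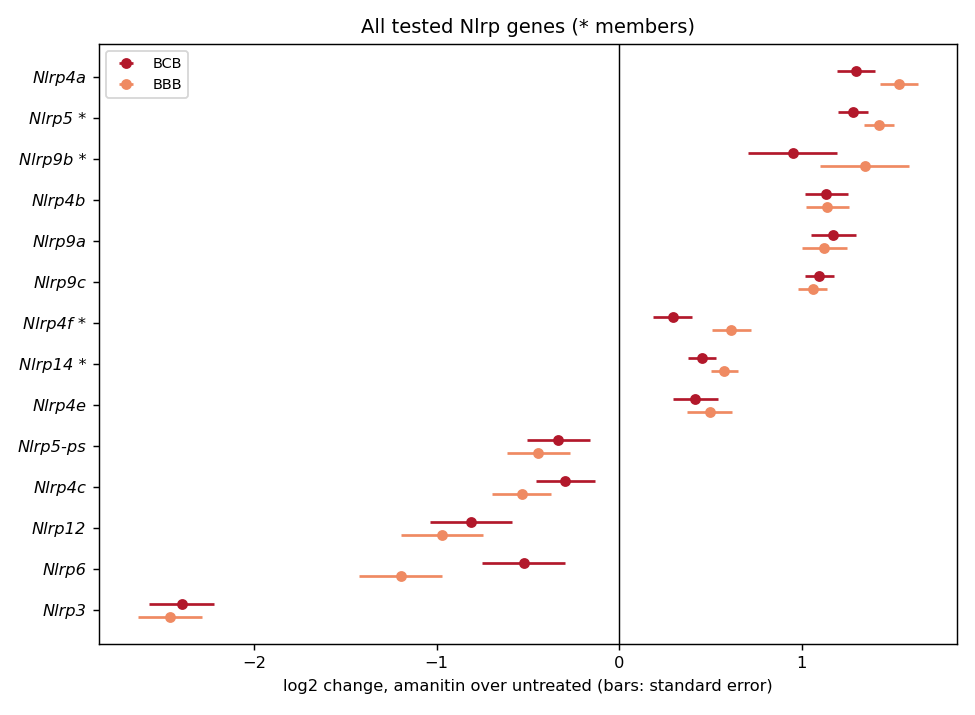
Log2 change with amanitin over untreated, with standard errors, for the 14 tested Nlrp genes, BCB above BBB, with asterisks for Nlrp5, Nlrp9b, Nlrp4f and Nlrp14. On the deposited scale 9 genes lie right of 0 and 5 left of it, from Nlrp4a (1.30 and 1.54) to Nlrp3 (−2.40 and −2.46), and on the poly-A scale none was called higher.

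Partners of the Nlrp sensors in the inflammasome were mostly dim. Of 10, 5 were tested, with 2 called higher and 1 lower in BCB and 3 higher and 1 lower in BBB on the deposited scale, and 0 higher and 4 lower in BCB and 1 higher and 3 lower in BBB on the poly-A scale. Beside these, the shares of all genes were 39.9% higher and 31.9% lower in BCB, and 37.1% and 33.1% in BBB. They were 79.7% and 80.8% lower on the poly-A scale. Nek7, a mitotic kinase that also binds Nlrp3, was 774 ± 83.7 with amanitin, against 210.2 ± 39.7 untreated in BCB embryos, and 959 ± 79.5 against 202 ± 35.5 in BBB embryos, a log2 change of 1.81 and 2.17. Il18, an interleukin matured by the inflammasome, had 0.59 and 0.66, and Gsdmd, the pore protein of pyroptosis, had −0.89 and −0.44, both at group means below 40. Il18 reached the 40th percentile on no untreated BBB array and Gsdmd on no BCB array with amanitin. Both are among the calls counted, and their changes are given as a description. The adaptor Pycard and the caspase Casp1 had group means of at most 11.1 and did not pass the filter.

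Relatives of the complex members were split. Of 14 tested genes of the Tle, Padi, Khdc1, Dppa5 and Zbed families, 3 were called higher and 6 lower in each kind on the deposited scale, and none higher and 12 lower on the poly-A scale. Shares of all genes were 39.9% higher and 31.9% lower in BCB, and 37.1% and 33.1% in BBB. They were 79.7% and 80.8% lower on the poly-A scale. Tle5, a short Tle protein without the repressor's WD repeats, had a log2 change of 1.69 in BCB and 1.55 in BBB, beside −1.90 and −2.33 for the corepressor Tle4. Khdc1a, an oocyte protein with the same kind of domain as Khdc3, had 1.21 and 1.20, and Dppa5a, the relative of Khdc3 and Ooep in pluripotent cells, had −1.85 and −1.66. Khdc1b had 0.58 and 0.58, and Zbed5 −1.63 and −1.43. Of the other Padi enzymes, Padi4, which citrullinates histones, was lower (−0.60 and −0.51), and Padi1, Padi2 and Padi3 were not called. Padi1 reached the 40th percentile on 4 arrays, 2 of each kind with amanitin and 0 untreated, so it entered the fit through the treated arrays. Khdc1b, Zbed5, Padi4 and the Padi genes not called are outside the naming rule and were added with their values known.

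Of 12 genes whose proteins have been reported to bind the complex or the lattices, 8 were called higher and 3 lower in BCB and 7 higher and 3 lower in BBB on the deposited scale, against none higher and 12 lower on the poly-A scale. On the scale of the hybridization controls the BCB count was 1 higher and 6 lower, where 63.2% of all genes were called in either direction. Shares of all genes on the deposited scale were 39.9% higher and 31.9% lower in BCB, and 37.1% and 33.1% in BBB. They were 79.7% and 80.8% lower on the poly-A scale. Ywhaz, a 14-3-3 protein, had a log2 change of 1.15 and 1.20 on the deposited scale, and Uhrf1, which guides maintenance DNA methylation and whose place in the egg depends on the complex in mouse, had 0.62 and 1.12. Tubb2b, a tubulin, had 0.93 in BCB and 1.07 in BBB. Ctnnb1, the β-catenin of the Wnt pathway that Zbed3 is linked to through axin, was 333 ± 42.1 with amanitin, against 2206 ± 256 untreated in BCB embryos, and 292 ± 44.2 against 2226 ± 236 in BBB embryos. Its log2 change was −2.67 and −2.87, and that of the kinase Gsk3b was −0.97 and −1.09. Axin1 ran the other way on the deposited scale, with 0.91 in each kind, both called. It is outside the naming rule and was added with its values known.

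Other oocyte transcripts were mostly higher with amanitin on the deposited scale and not on the poly-A scale. Of 19 tested, 13 were called higher and 2 lower in BCB and 14 higher and 2 lower in BBB, with medians of 0.69 and 0.77, and on the poly-A scale none was higher, with 15 and 14 lower. Shares of all genes on the deposited scale were 39.9% higher and 31.9% lower in BCB, and 37.1% and 33.1% in BBB. They were 79.7% and 80.8% lower on the poly-A scale. Zp2, a protein of the zona pellucida around the egg, had a log2 change of 1.71 in BCB and 2.01 in BBB on the deposited scale. Nobox had 1.43 and 1.50, while Sohlh1, which acts earlier in oocyte growth, had −0.81 and −0.92 and Dppa3 had −1.49 and −1.37. Of the 6 tested regulators of oocyte promoters, 4 were called higher and 1 lower in BCB and 3 higher and 1 lower in BBB, against none higher and 5 lower on the poly-A scale in each. Lhx8, a homeobox partner of Nobox in the oocyte, had 0.69 and 0.77, and Figla, whose binding letters are the E-boxes printed above, was not called (0.23 and 0.30) and was added with its values known. No gene of any of these 6 lists was called between BCB and BBB embryos, with amanitin or untreated.

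The genes whose values ran most like each member were ranked by Pearson's r over all 16 arrays, where treated and untreated arrays form separate clusters and share their scaling, and r within each treatment (8 arrays each) is given as a description. For Nlrp5 they were Dnajb4, Srbd1 and Elavl3, all at 0.996 over 16 arrays, and at 0.907, 0.907 and 0.821 among arrays with amanitin and 0.850, 0.815 and 0.956 among untreated arrays. For Tle6 they were Gltp, Bmp6 and Ahcyl2 (0.995, 0.994 and 0.993), and for Ooep Galm, Tmem175 and Pfdn4 (0.982, 0.978 and 0.978). Padi6 ran most like Mphosph9, Tcea1 and Timd4 (0.992, 0.992 and 0.991), at 0.884, 0.809 and 0.783 with amanitin and 0.806, 0.891 and 0.884 untreated. Nlrp14 ran most like Gpr63, Farp2 and Emsy (0.986, 0.985 and 0.980), at 0.920, 0.935 and 0.888 with amanitin and 0.842, 0.751 and 0.734 untreated. Nlrp4f ran most like Cnot4, Heatr5b and Txnl4b (0.917, 0.915 and 0.901), at 0.839, 0.843 and 0.926 with amanitin and 0.858, 0.872 and 0.572 untreated. Zbed3 ran most like Trim75, Oosp3 and Psenen (0.986, 0.984 and 0.984), at 0.580, 0.334 and 0.661 among arrays with amanitin and 0.971, 0.990 and 0.935 among untreated arrays. For Khdc3 they were Cmss1, Mideas and Borcs6 (0.925, 0.914 and 0.902), at 0.814, 0.822 and 0.864 among arrays with amanitin and 0.812, 0.738 and 0.698 among untreated arrays. Nlrp9b ran most like Rhobtb3, a predicted gene of clone origin and Tcea3 (0.947, 0.946 and 0.941). Its r with them was 0.138, 0.432 and 0.497 among arrays with amanitin and 0.952, 0.927 and 0.979 among untreated arrays, where BCB array 1 lay apart.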

How the data were processed

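Mouse two-cell embryo RNA was hybridised to 16 one-colour arrays. Per the labels' protocols, a Picopure kit was used for extraction and an ENZO kit for biotin labelling. The deposited values are intensity on a linear scale, for 45037 probe sets of transcripts and 64 controls. On every array the mean without the top and bottom 2% was 150, from which it is taken that the authors scaled the arrays. How they did so is not given in the sources used. No pair of arrays was identical.

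Probe sets were named from the platform annotation, where 34945 have 1 symbol, 932 several and 9160 none, and 34741 matched RefSeq. Values were taken as log2(intensity + 16). Probe sets at or above the 40th percentile of 4 or more arrays were tested, which left 31953. Each gene took the values of its brightest tested probe set. Group means of all 16 arrays were fitted together in limma 3.58.1 (R 4.3.3) with a moderated, intensity-dependent variance, and p-values were adjusted by Benjamini-Hochberg over these probe sets. There were 5 contrasts: the amanitin effect in each kind, BCB against BBB in each treatment, and the BCB effect minus the BBB effect. The fit was tested on simulated data.

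All members were named. From each related list the 2 largest rises and the 2 largest falls among called genes were named per contrast, and names outside this rule are marked. The related lists held other Nlrp genes, inflammasome partners, relatives of complex members, reported partners of the complex and the lattices, other oocyte and maternal-effect transcripts, and promoter regulators, beside markers of the two-cell stage, of oocytes and of cumulus and granulosa cells. Members and lists were chosen with earlier results of these data known. Within-array ratios were compared with exact permutation tests (scipy 1.17.1). Scaling to 12 poly-A or 9 hybridization controls subtracted their mean log2 value. Promoter windows came from RefSeq on GRCm38.p6.

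Alternatives were quantile normalization, median centring, both control scalings, pseudocounts of 1 and 64, no filter and a 60th percentile filter, averaged probe sets, fits of only the compared groups, a replicate block, no trend, and leaving out each array. The labels give no batch, and the number of arrays limits the precision.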

Additional observations from a re-analysis of the deposited data

Results flagged for a closer look

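In 3 of the 48 groups of 4 arrays examined over the 12 probe sets, 1 array lay far from the other 3 by Dixon's criterion, and chance flags about 1 group in 20. Nlrp9b on untreated BCB array 1 had an intensity of 318.9, where the other 3 untreated BCB arrays had 85.4 to 107.0. Nlrp9b on BCB array 4 with amanitin had 197.4, where the other 3 arrays of that group had 291.1 to 301.8. Nlrp14 on BCB array 1 with amanitin had 2622.5, where the other 3 had 2980.0 to 3053.2. Without untreated BCB array 1, the Nlrp9b difference between BCB and BBB untreated was −0.19 (0.21 with it), and the BCB effect minus the BBB effect was 0.00 (−0.40 with it), neither of them called.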

How the results depend on the processing

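Across 60 log2 values of the member probe sets and 1660 alternatives for them, 1539 kept their direction and their side of the threshold, 32 fell below it (17 of them for the dim Zbed3 probe set 1437097_at), 1 passed it and 24 called values turned in direction. Values called in neither setting changed sign in the other 64, at most to a size of 0.25. Many of the 1660 alternatives left the log2 value as it was and changed its p-value alone. Among them were leaving out an array outside the groups compared, a replicate block, no trend and fits of only the compared groups. The 1539 are therefore no measure of how stable the values were. Scaled to the poly-A controls, the log2 changes with amanitin in BCB embryos were Nlrp5 −0.51, Ooep −0.83, Tle6 −0.49, Padi6 −1.08, Zbed3 −0.94, Nlrp4f −1.50, Nlrp14 −1.34, Nlrp9b −0.70, Zbed3 1437830_x_at −0.71, Zbed3 1452088_at −0.01. In BBB embryos they were Nlrp5 −0.35, Ooep −0.64, Tle6 −0.44, Padi6 −0.98, Zbed3 −0.92, Nlrp4f −1.16, Nlrp14 −1.19, Nlrp9b −0.29, Zbed3 1437830_x_at −1.08, Zbed3 1452088_at −0.46. Scaled to the hybridization controls, BCB changes turned to −0.07 for Padi6, −0.47 for Nlrp4f and −0.31 for Nlrp14, and with quantile normalization that of Nlrp4f turned to −0.16. On the hybridization scale 5 members were called in BCB, 2 higher and 3 lower, and the calls in the related lists were 7 of the reported partners in BCB and 3 and 2 of the promoter regulators in BCB and BBB. With only the untreated groups fitted, 1 member, Khdc3, was called between BCB and BBB. Leaving out each array in turn gave 8 to 9 members called with amanitin in BCB, 9 in BBB and 0 in the other 3 contrasts. The labels state no pairing of arrays by replicate number. Deviations of same-numbered arrays correlated at most at 0.107, beside 0.150 for the unlike-numbered BCB array 3 and BBB array 2, both untreated. Such small values show no pairing but cannot exclude a weak one. With the replicate block, 9 members were called with amanitin in each kind and 0 in the other contrasts. The cause of these changes was not tested. The mean of probe sets could change the value of Zbed3 alone among the members, since the other 8 had 1 probe set each. The number of arrays, and for Khdc3, Nlrp9b and 1437097_at their low intensity, limit what could be detected.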
